A study of Mus musculus with 21 samples.

Results

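The genes of cholesterol and fatty acid synthesis were followed in mouse left ventricle through 32 genes chosen by name, covering the path to cholesterol, the sterol sensing proteins that control it, and fatty acid synthesis, elongation and desaturation, with one glycerolipid enzyme. Each gene was represented by the probe set annotated to it alone, and by the one with the highest mean over all arrays where several qualified. Of the 32 genes, 31 had such a probe set among the 19937 genes measured. Acat2 was not analysed here. A level of 5 on the log2 scale on at least 3 arrays was required for testing, which 28 members and 11384 genes in all passed. Sqle, Lss and Elovl6 did not pass and are given as values only.

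The series holds 21 Affymetrix arrays of left ventricle from mice aged 9 to 13 weeks, killed 4 days after the injections. Tamoxifen was given into the peritoneum at 40 mg/kg on 1 day or on 4 days in a row, or a control injection was given in the same way. The transgenic mice, called MCM here, carry Tg(αMHC-MerCreMer): the αMHC promoter drives, in cardiomyocytes, a Cre recombinase flanked by mutated oestrogen receptor domains that tamoxifen brings to the nucleus. The wild type mice, called WT here, lack the transgene. The labels name no floxed allele and no background strain. The groups were MCM after 1 tamoxifen injection, MCM after 1 control injection, MCM after 4 tamoxifen injections, MCM after 4 control injections and WT after 4 tamoxifen injections, with 3 arrays each, and WT after 4 control injections with 6 arrays. Each group of 3 held 1 male, and WT after 4 control injections held 3 males and 3 females. Every group thus holds at least 2 animals, 1 of each sex. The labels do not say whether arrays of the same group and sex came from separate animals, so p-values measure the spread between these arrays, which may be technical in part.

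Cells make cholesterol from acetyl-CoA by way of mevalonate, squalene and lanosterol, and make long-chain fatty acids from the same acetyl-CoA by way of malonyl-CoA. When sterol falls in the membrane of the endoplasmic reticulum, the escort protein Scap carries the precursors of the transcription factors SREBP1 and SREBP2 to the Golgi, where they are cut and released to the nucleus. Insig1 holds Scap back when sterol is plentiful. SREBP2 mainly drives sterol genes and SREBP1 mainly drives fatty acid genes, and their sites in promoters often lie next to CCAAT boxes bound by the factor NF-Y. Tamoxifen can itself act on this path, since it binds Ebp, the sterol isomerase, and can inhibit late steps of cholesterol synthesis. WT mice given tamoxifen therefore carry the drug without the transgene.

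Promoters of 4 members that were called after 4 tamoxifen injections in MCM hearts are printed here because they hold the letters these factors are known to bind, or lack them. The windows run from 250 bases before to 50 bases after the RefSeq transcript start, from GRCm38.p6. Hmgcs1 lies on the plus strand at chr13:119690101-119690400, Srebf2 on the plus strand at chr15:82147019-82147318, Acly on the minus strand at chr11:100527951-100528250 and Fasn on the minus strand at chr11:120824498-120824797. Each is written 5′ to 3′ on the gene's own strand, and capitals mark a match on either strand to the sterol regulatory element TCACNCCAC, the E-box CACGTG or the CCAAT box CCAAT, which reads ATTGG on the other strand.
Hmgcs1: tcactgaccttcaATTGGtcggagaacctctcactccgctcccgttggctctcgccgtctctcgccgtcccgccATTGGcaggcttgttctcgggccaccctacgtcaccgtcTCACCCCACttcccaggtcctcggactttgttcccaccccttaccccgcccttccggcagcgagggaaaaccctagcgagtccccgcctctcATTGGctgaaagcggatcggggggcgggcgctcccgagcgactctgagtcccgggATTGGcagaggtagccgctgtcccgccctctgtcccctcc
Srebf2: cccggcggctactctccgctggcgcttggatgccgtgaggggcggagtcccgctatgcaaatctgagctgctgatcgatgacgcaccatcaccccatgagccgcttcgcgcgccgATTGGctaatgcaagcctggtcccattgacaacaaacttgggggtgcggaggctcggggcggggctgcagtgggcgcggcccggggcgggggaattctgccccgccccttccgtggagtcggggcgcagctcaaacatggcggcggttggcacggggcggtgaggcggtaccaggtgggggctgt
Acly: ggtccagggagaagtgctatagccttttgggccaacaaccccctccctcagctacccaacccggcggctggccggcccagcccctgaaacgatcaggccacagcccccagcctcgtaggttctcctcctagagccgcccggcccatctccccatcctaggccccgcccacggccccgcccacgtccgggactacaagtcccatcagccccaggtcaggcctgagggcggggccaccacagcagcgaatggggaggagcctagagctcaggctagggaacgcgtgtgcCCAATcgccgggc
Fasn: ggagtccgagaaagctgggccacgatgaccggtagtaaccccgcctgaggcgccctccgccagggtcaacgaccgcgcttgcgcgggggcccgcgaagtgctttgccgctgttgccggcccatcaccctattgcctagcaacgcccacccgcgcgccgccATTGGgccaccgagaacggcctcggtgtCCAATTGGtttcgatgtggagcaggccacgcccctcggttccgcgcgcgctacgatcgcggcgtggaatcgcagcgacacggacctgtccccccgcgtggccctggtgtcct
The Hmgcs1 window held 1 sterol regulatory element, at position -137 relative to the start, and 4 CCAAT boxes. The Srebf2 window held 1 CCAAT box, the Acly window 1 and the Fasn window 3, of which a neighbouring pair share letters. No match of one motif overlapped a match of another.

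RefSeq windows matched 25 of the 32 members by symbol, with 32 windows in all. Fdps, Fdft1, Sqle, Stard4, Scd1, Scd2 and Fads1 had no entry. The sterol element was in 1 member window (3.12%), against 1.24% of all 32851 windows and 1.13% of the windows of tested genes. The E-box was in 6 member windows (18.8%), against 7.15% of all windows and 9.93% of the windows of tested genes. These 6 windows belong to 5 genes, since a pair of overlapping Scap windows hold the same E-box. The CCAAT box was in 20 member windows (62.5%), against 37.4% of all windows and 36.7% of the windows of tested genes. Among the other members called in MCM hearts, Nsdhl had 4 CCAAT boxes, Ebp had 2, and Elovl5 had 2 with 1 E-box. A match is a description of letters, and no match says only that these letters are not in the window.

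All 16 cardiomyocyte markers were at or above 5 on every array, and Myh6, the αMHC gene, ranged from 12.38 to 12.73. Not all were this steady. Ryr2 read 10.78, 10.15 and 9.31 on the MCM 4 tamoxifen arrays, against 11.39, 11.48 and 11.40 on the MCM 4 control arrays. In that comparison 3 of the 16 were called lower, 0 higher and 13 were not called. The MCM 4 tamoxifen arrays stood apart from each other: their correlations over the tested genes ran from 0.9182 to 0.9742, while the lowest within any other group was 0.9824. Their residual variance was 0.0708, against 0.0102 to 0.0154 in the other groups, and over the members it was 0.0988, against 0.0102 to 0.0263. Macrophage markers were higher on these arrays, with summed linear signals over 25 genes of 4041, 2752 and 7498 on replicates 1 to 3, against 2113, 2086 and 2071 on the MCM 4 control arrays. The other 15 arrays, those of the MCM 1 injection and WT groups, lay between 1974 and 2583. In bulk tissue, fewer cells of a type and less RNA per cell cannot be told apart. A further split, into arrays that differ on unannotated probe sets, crossed the MCM groups: 2 arrays of each MCM group lay on one side, called array set A, and the remaining array of each, with all 9 WT arrays, on the other.

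After 4 tamoxifen injections MCM hearts had more mRNA for 8 members than MCM hearts after 4 control injections, and for no member less. The 8 were Scd2, Hmgcs1, Srebf2, Acly, Fasn, Elovl5, Nsdhl and Ebp, which span the sterol and the fatty acid branches. Scd2, a stearoyl-CoA desaturase, was 3.12-fold higher and the others were between 1.24-fold and 1.56-fold higher. The test was limma over all 21 arrays with sex as a covariate, and a gene was called at a Benjamini-Hochberg adjusted p under 0.05 over all 11384 genes. This comparison called 23.3% of all tested genes, 13.9% as higher and 9.41% as lower, against 28.6% of the members. With both directions counted, the share of members called is thus near the background share. All 8 calls were higher, where 13.9% of all genes were, and none was lower, where 9.41% were. Nothing particular to the members is read from these shares. The members' median log2 change was 0.263 and that of all tested genes was 0.014, and 21 of the 28 members had a positive change, against 52.5% of all genes. The members' median was 0.11 without MCM 4 tamoxifen replicate 3 and 0.08 with array weights. In 11 members every MCM 4 tamoxifen array was above every MCM 4 control array, as in 16.6% of all genes, and in 1 member, Scap, every one was below, as in 11.3% of all genes. Scap was not called, and its groups lay close: 7.30, 7.24 and 7.30 with tamoxifen, against 7.31, 7.43 and 7.31 in the controls.

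Those calls rest on a spread shared by all 6 groups and on which arrays are counted. The MCM 4 tamoxifen arrays vary more, with a residual variance of 0.0708 against 0.0102 to 0.0154 in the other groups. SEs and p-values of comparisons that use these arrays can thus be too low. Fitted on the 6 MCM 4 tamoxifen and MCM 4 control arrays alone, no member and 18 genes in all (0.158%) were called. The lowest limma adjusted p of the 8 was then 0.0641, for Scd2. Without MCM 4 tamoxifen replicate 3, 7 members were called against 16.5% of all genes, and without replicate 2, 13 were called, 10 higher and 3 lower, against 33.8% of all genes. Acly, Elovl5, Fasn, Hmgcs1, Scd2 and Srebf2 were called whichever of the 6 arrays was left out. Within array set A, with 2 arrays a group, 1 member (Scd2) was called at 5.75% of all genes.

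**Figure D1:**
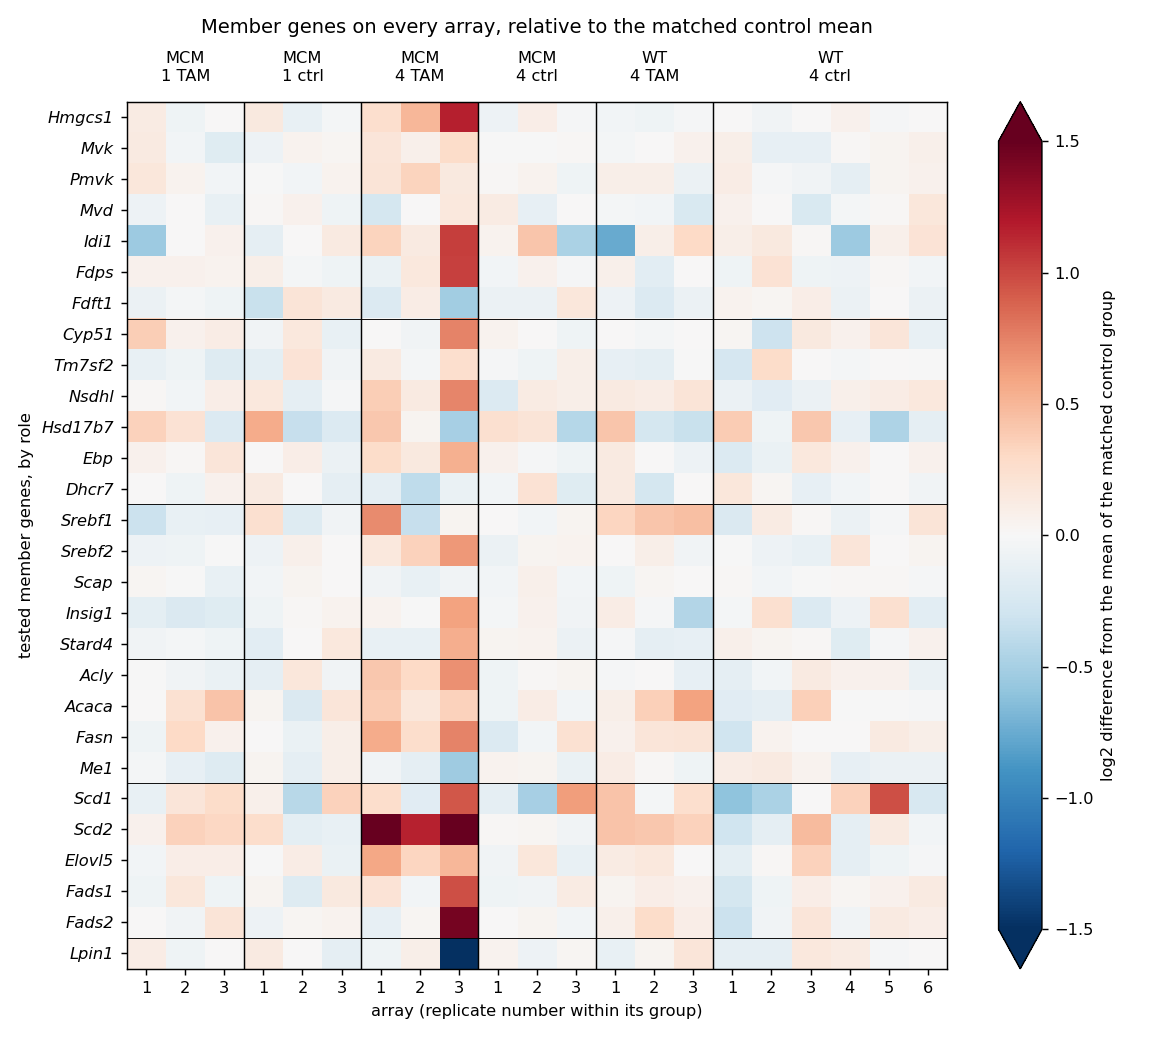
Heat map of the 28 tested members (rows, by role) on all 21 arrays (columns, by group), as the log2 difference from the mean of the matched control group, with the colour scale ending at 1.5 either way. The 3 MCM 4 tamoxifen columns hold the strongest colours, with replicate 3 the strongest for many sterol genes and Scd2 dark in all 3.

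In the steps that lead to squalene, 1 of 7 tested members was called. Hmgcs1, the HMG-CoA synthase, acts early on the path to mevalonate. It read 7.80, 8.05 and 8.72 on the 3 MCM 4 tamoxifen arrays (replicates 1 to 3 here and throughout), against 7.48, 7.65 and 7.53 on the MCM 4 control arrays. Every tamoxifen array was above every control array, with replicate 3 farthest. The group means were 8.19 ± 0.474 and 7.55 ± 0.0876 (SD, n = 3 each), and limma gave a log2 change of 0.64 (SE 0.147, adjusted p = 0.00517). Without replicate 3 the change was 0.37 (adjusted p = 0.00671).

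The other 6 tested genes of these steps were not called. Pmvk, the phosphomevalonate kinase, came nearest with a change of 0.23 (limma adjusted p = 0.0502), on 5.97, 6.11 and 5.93 in MCM 4 tamoxifen hearts against 5.80, 5.83 and 5.71 in MCM 4 control hearts. Mvk, the mevalonate kinase, had a change of 0.18 and Mvd, the decarboxylase that follows, one of -0.03. Idi1, which isomerises isopentenyl diphosphate, read 6.15, 5.96 and 6.86 in MCM 4 tamoxifen hearts, against 5.87, 6.24 and 5.35 in MCM 4 control hearts, so its groups overlapped. Fdps, the farnesyl diphosphate synthase, read 6.47, 6.73 and 7.58 in MCM 4 tamoxifen hearts, against 6.52, 6.63 and 6.54 in MCM 4 control hearts, so that it stood farthest apart on replicate 3. Fdft1, the squalene synthase, had a change of -0.20 and was lowest on replicate 3, at 8.04.

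In the steps from squalene to cholesterol, 2 of 6 tested members were called. Nsdhl removes methyl groups from the sterol ring. It read 6.03, 5.78 and 6.38 on the MCM 4 tamoxifen arrays, against 5.44, 5.77 and 5.74 on the MCM 4 control arrays, with a change of 0.41 (SE 0.126, limma adjusted p = 0.0261). Replicate 2 lay only just above the highest control array. The Nsdhl call was lost without MCM 4 tamoxifen replicate 3 (0.26, adjusted p = 0.14) and without MCM 4 control replicate 1 (0.32, adjusted p = 0.125).

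Ebp, the isomerase that binds tamoxifen, read 7.24, 7.12 and 7.50 in MCM 4 tamoxifen hearts, against 7.05, 6.96 and 6.92 in MCM 4 control hearts. The groups did not overlap, and the change was 0.31 (SE 0.104, limma adjusted p = 0.0358). The Ebp call was lost without MCM 4 tamoxifen replicate 3 (0.21, adjusted p = 0.175) and without MCM 4 control replicate 1 (adjusted p = 0.051), 2 (adjusted p = 0.0871) or 3 (adjusted p = 0.116). Dhcr7, which makes cholesterol in the last step of one branch, had a change of -0.21, and was not called. Tm7sf2, a sterol reductase, had 0.12 and Hsd17b7, a ketosteroid reductase, had -0.02. Cyp51, the lanosterol demethylase, read 5.40, 5.35 and 6.14 in MCM 4 tamoxifen hearts, against 5.46, 5.41 and 5.34 in MCM 4 control hearts, and was above the controls on replicate 3 alone.

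Sqle, which turns squalene into its epoxide and limits the rate of the late path, reached the level for testing on too few arrays. It read 4.58, 5.0 and 6.76 in MCM 4 tamoxifen hearts, against 4.51, 4.88 and 4.57 in MCM 4 control hearts. It read 4.55, 4.40 and 4.40 in MCM 1 tamoxifen hearts, against 4.56, 4.34 and 4.38 in MCM 1 control hearts. In WT hearts it read 4.43, 4.56 and 4.43 after 4 tamoxifen injections, against a lowest, median and highest value of 4.04, 4.60 and 4.80 after 4 control injections. One array of the 21, MCM 4 tamoxifen replicate 3, was thus clearly above the rest. Lss, which closes the sterol ring, was at 4.03, 4.32 and 5.04 in MCM 4 tamoxifen hearts, against 4.43, 4.25 and 4.10 in MCM 4 control hearts.

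Of the 5 sterol sensing and transport genes, Srebf2 was called. Srebf2 encodes SREBP2. It read 7.29, 7.47 and 7.78 on the MCM 4 tamoxifen arrays, against 7.04, 7.17 and 7.17 on the MCM 4 control arrays. The groups did not overlap, and the change was 0.39 (SE 0.085, limma adjusted p = 0.00388). Srebf1, which encodes SREBP1, read 7.92, 6.86 and 7.24 in MCM 4 tamoxifen hearts, against 7.21, 7.17 and 7.25 in MCM 4 control hearts. Its tamoxifen arrays lay on both sides of the controls, and the change of 0.13 was not called. Insig1 had 7.71, 7.65 and 8.27 in MCM 4 tamoxifen hearts, against 7.64, 7.74 and 7.62 in MCM 4 control hearts, with a change of 0.21. Scap had a change of -0.07 and Stard4, a cytosolic sterol carrier, one of 0.10.

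In fatty acid supply and synthesis, 2 of 4 members were called. Acly splits citrate to give cytosolic acetyl-CoA. It read 7.39, 7.29 and 7.67 in MCM 4 tamoxifen hearts, against 6.93, 7.01 and 7.03 in MCM 4 control hearts, with a change of 0.46 (SE 0.0989, limma adjusted p = 0.00326). Fasn, the fatty acid synthase, read 7.45, 7.15 and 7.63 in MCM 4 tamoxifen hearts, against 6.69, 6.85 and 7.12 in MCM 4 control hearts. Its change was 0.52 (SE 0.123, limma adjusted p = 0.00607). Neither gene's groups overlapped, although Fasn replicate 2 lay close to the highest control array. Acaca, the acetyl-CoA carboxylase, read 6.55, 6.34 and 6.51 in MCM 4 tamoxifen hearts, against 6.10, 6.28 and 6.13 in MCM 4 control hearts. Its change of 0.30 was not called (limma adjusted p = 0.14). Me1, the malic enzyme that supplies NADPH, had a change of -0.24 that was not called (limma adjusted p = 0.0592).

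Among desaturases and elongases, 2 of 5 tested members were called. Scd2 read 8.97, 8.0 and 8.51 on the MCM 4 tamoxifen arrays, against 6.87, 6.87 and 6.80 on the MCM 4 control arrays. Every other array of the series was at or under 7.21, so the 3 MCM 4 tamoxifen arrays were its highest. The means were 8.49 ± 0.485 and 6.85 ± 0.0417 (SD, n = 3 each), and the change was 1.64 (SE 0.19, limma adjusted p = 1.66e-05). Elovl5, an elongase of polyunsaturated fatty acids, read 8.30, 8.03 and 8.22 in MCM 4 tamoxifen hearts, against 7.66, 7.88 and 7.60 in MCM 4 control hearts. Its change was 0.47 (SE 0.113, limma adjusted p = 0.00728).

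Scd1, the neighbouring desaturase gene, varied within every group and was not called. It read 6.45, 6.02 and 7.13 in MCM 4 tamoxifen hearts, against 6.07, 5.69 and 6.82 in MCM 4 control hearts. The desaturases of polyunsaturated fatty acids, Fads1 and Fads2, were not called and stood farthest from the controls on replicate 3. Fads1 read 7.45, 7.21 and 8.22 in MCM 4 tamoxifen hearts, against 7.18, 7.19 and 7.37 in MCM 4 control hearts. Fads2 read 6.42, 6.57 and 7.98 in MCM 4 tamoxifen hearts, against 6.55, 6.58 and 6.5 in MCM 4 control hearts. Elovl6, an elongase, reached the level for testing on too few arrays. Elovl6 read 4.03, 4.38 and 5.01 in MCM 4 tamoxifen hearts, against 4.36, 4.00 and 4.41 in MCM 4 control hearts. Lpin1, a phosphatidate phosphatase of glycerolipid synthesis, was low on the same array and was not called, with 9.46, 9.61 and 8.02 in MCM 4 tamoxifen hearts against 9.58, 9.44 and 9.55 in MCM 4 control hearts.

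**Figure D2:**
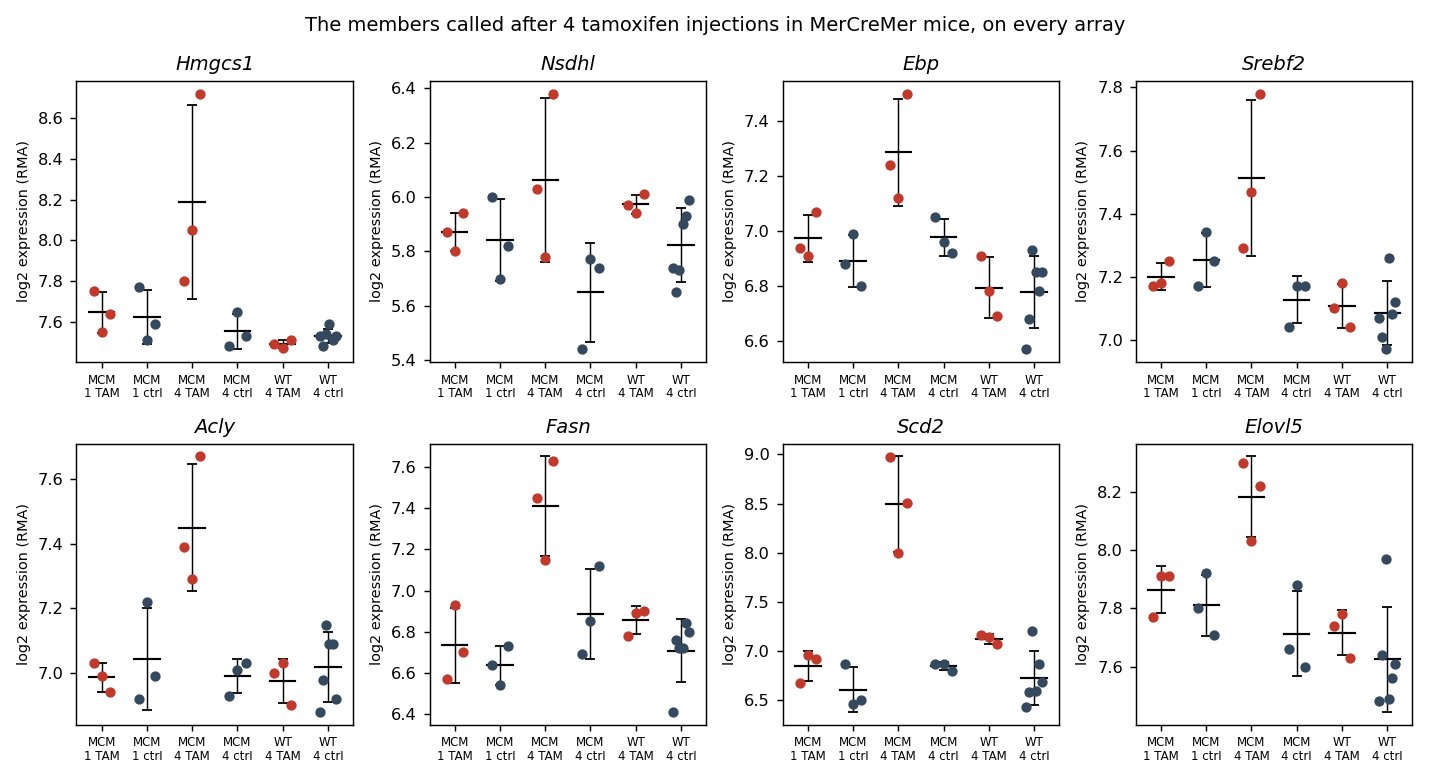
The 8 members called in MCM hearts after 4 tamoxifen injections, on every array (points, log2 expression), with the group mean (line) and SD (bar, n = 3, or 6 for WT 4 control). Tamoxifen arrays are red and control arrays dark; the MCM 4 tamoxifen group has the highest mean in each panel, and in Scd2 its lowest array is at 8.0.

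The members' differences were uneven over the 3 MCM 4 tamoxifen arrays. The members' median difference from the MCM 4 control mean was 0.19, 0.08 and 0.53 on replicates 1 to 3. Replicate 3 had the highest value of all 21 arrays for 19 of the 31 measured members, and for 16 of the 28 tested, against 24.1% of all tested genes. On it Sqle was 2.10 above the control mean, Fads2 1.43, Hmgcs1 1.17, Idi1 1.04, Fdps 1.02 and Fads1 0.97. On replicate 1 the largest differences were those of Scd2, at 2.12, and Srebf1, at 0.71, and on replicate 2 those of Scd2, at 1.15, and Hmgcs1, at 0.50. Without replicate 3 the change of Fads2 was -0.03, of Fdps 0.03, of Fads1 0.09 and of Lpin1 0.02, while Scd2 stayed at 1.61.

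By the median of each list, replicate 3 stood highest for macrophage and fibroblast markers. It was lowest of the 3 MCM 4 tamoxifen arrays for endothelial, cardiomyocyte and adipocyte markers. Single markers departed from their list. Of these 3 arrays, replicate 3 was the lowest for the fibroblast markers Fbln1, Dpt and Dcn. It was the highest for the cardiomyocyte marker Gata4 and the adipocyte marker Cebpa. The macrophage marker Gpnmb was highest on replicate 1, and the endothelial markers Esam and Eng were lowest on replicate 2. Of 23 tested macrophage markers, 22 were called higher, with a median change of 1.02, and their median difference from the MCM 4 control mean was 0.85, 0.29 and 1.86 on replicates 1 to 3. Without replicate 3, 17 of the 23 were called. Fibroblast markers were 0.03, 0.09 and 1.01 above the control mean, with 2 of 14 called higher and 1 lower (7 higher without replicate 1 or 2, 1 without replicate 3, and none without MCM 4 control replicate 3), and summed signals of 5977, 5877 and 14354 on the MCM 4 tamoxifen arrays against 5627, 5458 and 5849 on the MCM 4 control arrays. Endothelial markers lay at 0.07, -0.30 and -0.51, with 3 of 13 called lower, and cardiomyocyte markers at -0.06, 0.04 and -0.24, with 3 of 16 called lower. Adipocyte markers lay at 0.32, 0.09 and -0.68, with 0 of 7 called. Of the 13 adipocyte markers measured, 7 passed the level for testing: Fabp4, Aqp7, Cidea, Lipe, Pparg, Slc36a2 and Cebpa. Over all 21 arrays Fabp4 ranged from 9.24 to 10.17 and Aqp7 from 6.65 to 9.24. Adipoq ranged from 2.24 to 3.5, Lep from 2.92 to 3.85 and Ucp1 from 2.88 to 3.89. These, with Plin1, Cidec and Retn, were under the level required for testing. The part of these cell types in the members' changes was not tested.

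**Figure D3:**
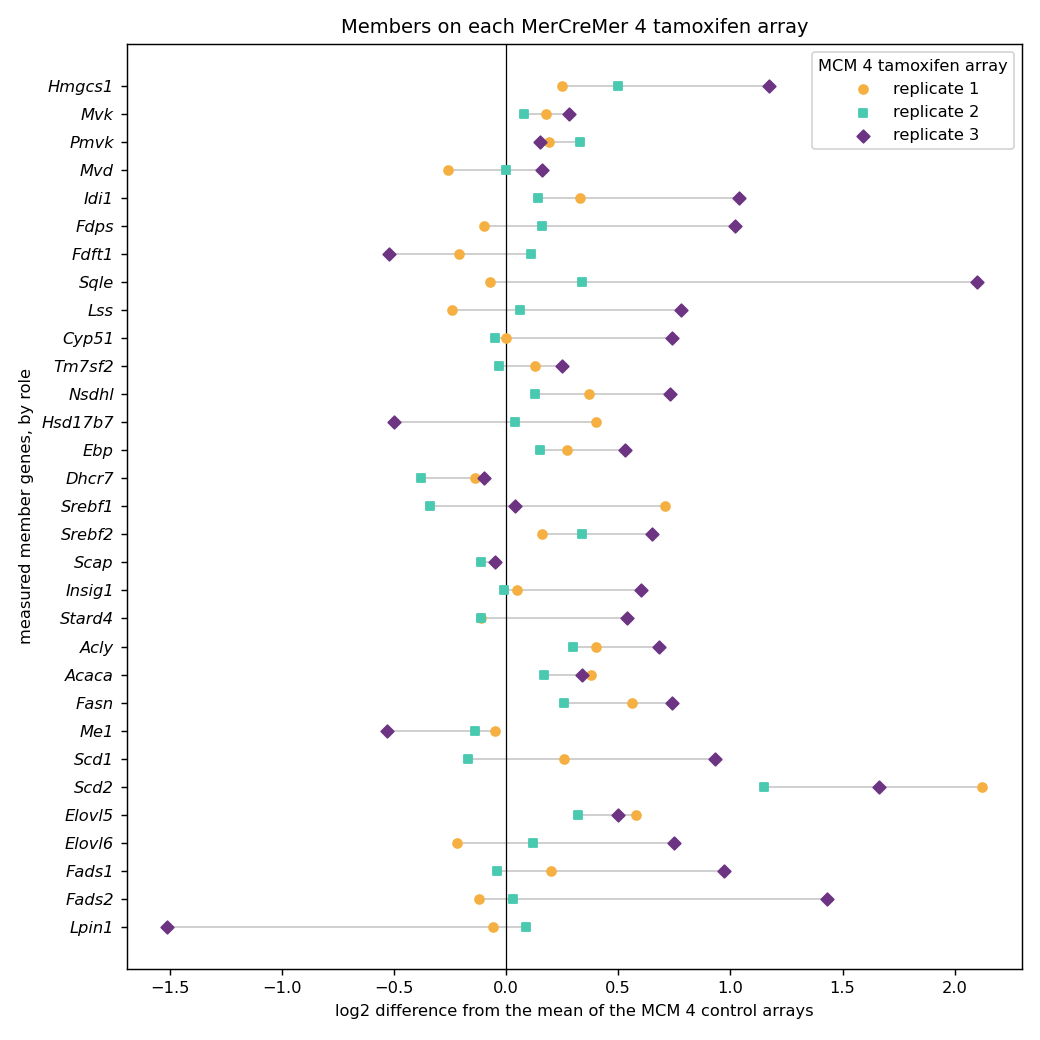
The 31 measured members on each MCM 4 tamoxifen array, as the log2 difference from the mean of the 3 MCM 4 control arrays; the grey line joins the lowest and the highest array of a gene. Replicate 3 (diamonds) lies far to the right for Sqle and Fads2 and far to the left for Lpin1, whereas Scd2 is displaced on all 3 arrays.

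One injection of tamoxifen in MCM hearts called no member, on a background of 0.00878% of all tested genes, and no member had an unadjusted limma p under 0.05, against 3.34% of all genes. Scd2 read 6.68, 6.96 and 6.92 after 1 tamoxifen injection, against 6.87, 6.46 and 6.5 after 1 control injection, so that the groups overlapped. Its change was 0.24 with a 95% interval from -0.16 to 0.64. Intervals and p-values here and in WT hearts use the spread shared by all 6 groups, to which the uneven MCM 4 tamoxifen arrays add. They can thus be wider, or higher, than the compared arrays alone would give. Hmgcs1 read 7.75, 7.55 and 7.64 in MCM 1 tamoxifen hearts, against 7.77, 7.51 and 7.59 in MCM 1 control hearts, with a change of 0.02 (95% interval -0.29 to 0.33). Fasn read 6.57, 6.93 and 6.70 in MCM 1 tamoxifen hearts, against 6.64, 6.54 and 6.73 in MCM 1 control hearts. The groups of both genes overlapped. Srebf2 read 7.17, 7.18 and 7.25 in MCM 1 tamoxifen hearts, against 7.17, 7.34 and 7.25 in MCM 1 control hearts, with a change of -0.06. Acly read 7.03, 6.99 and 6.94, against 6.92, 7.22 and 6.99, with a change of -0.05. Srebf1 read 6.98, 7.19 and 7.18 in MCM 1 tamoxifen hearts, against 7.54, 7.11 and 7.25 in MCM 1 control hearts. All these groups overlapped. Elovl5 read 7.77, 7.91 and 7.91 in MCM 1 tamoxifen hearts, against 7.80, 7.92 and 7.71 in MCM 1 control hearts, and Scd1 read 5.65, 5.94 and 6.03, against 5.84, 5.34 and 6.11. Nsdhl read 5.87, 5.80 and 5.94 in MCM 1 tamoxifen hearts, against 6.0, 5.70 and 5.82 in MCM 1 control hearts. Ebp read 6.94, 6.91 and 7.07 in MCM 1 tamoxifen hearts, against 6.88, 6.99 and 6.80 in MCM 1 control hearts. In 1 member the groups did not overlap, against 10.4% of all genes (6.88% higher and 3.51% lower). Insig1 was lower on every MCM 1 tamoxifen array, at 7.61, 7.55 and 7.59, than on every MCM 1 control array, at 7.69, 7.79 and 7.82, and was not called.

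In WT hearts 4 tamoxifen injections called no member, and none of all tested genes (0%). At an unadjusted limma p under 0.05 there were 3 members, against 2.59% of all genes, and each adjusted p was 1. Srebf1 read 7.33, 7.44 and 7.47 in WT 4 tamoxifen hearts, against a lowest, median and highest value of 6.79, 7.02 and 7.21 in WT 4 control hearts. It was the 1 member whose groups did not overlap, against 3.42% of all genes (1.73% higher and 1.69% lower), and the change was 0.42 (SE 0.153, limma adjusted p = 1). Acaca read 6.35, 6.62 and 6.86 in WT 4 tamoxifen hearts, against 6.09, 6.24 and 6.61 as the lowest, median and highest WT 4 control values, with a change of 0.34. Scd2 read 7.16, 7.14 and 7.07 in WT 4 tamoxifen hearts, against 6.43, 6.64 and 7.21 as the lowest, median and highest WT 4 control values, with a change of 0.41 (95% interval 0.06 to 0.76).

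The late sterol enzymes near the drug's known target showed small changes in WT hearts. Ebp read 6.91, 6.78 and 6.69 in WT 4 tamoxifen hearts, against 6.57, 6.81 and 6.93 as the lowest, median and highest WT 4 control values, with a change of 0.02 (95% interval -0.17 to 0.21). Nsdhl read 5.97, 5.94 and 6.01 in WT 4 tamoxifen hearts, against 5.65, 5.82 and 5.99, in the same order, in WT 4 control hearts, with a change of 0.13. Dhcr7 had a change of -0.02. Hmgcs1 read 7.49, 7.47 and 7.51 in WT 4 tamoxifen hearts, against 7.48, 7.53 and 7.59 as the lowest, median and highest WT 4 control values. The 95% interval of its change ran from -0.31 to 0.22. Its SD was 0.021 in WT 4 tamoxifen and 0.0366 in WT 4 control hearts. The interval uses the shared spread, which takes in the MCM 4 tamoxifen arrays with an SD of 0.474. Fasn read 6.78, 6.89 and 6.90 in WT 4 tamoxifen hearts, against 6.41, 6.74 and 6.84, and Elovl5 read 7.74, 7.78 and 7.63, against 7.48, 7.58 and 7.97. The groups overlapped in all 3 of these genes. Acly read 7.0, 7.03 and 6.90 in WT 4 tamoxifen hearts, against 6.88, 7.03 and 7.15, and Srebf2 read 7.10, 7.18 and 7.04, against 6.97, 7.08 and 7.26. Scd1 read 6.18, 5.72 and 6.0 in WT 4 tamoxifen hearts, against 5.15, 5.63 and 6.72 in WT 4 control hearts. The interval of Nsdhl in WT hearts, -0.10 to 0.36, overlaps that in MCM hearts, and the Ebp effect differed between genotypes by 0.30, which was not called.

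**Figure D4:**
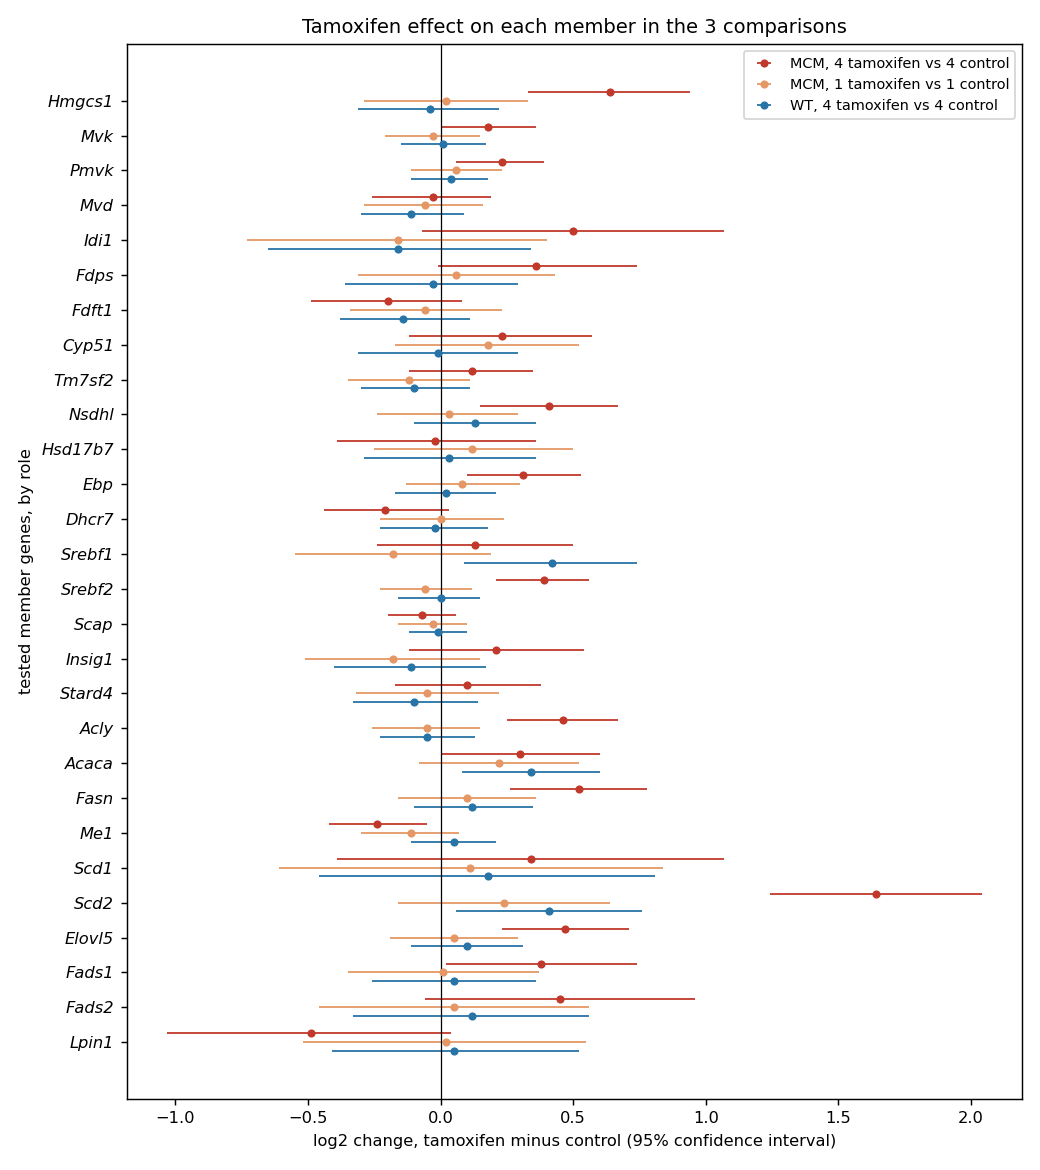
The log2 change of each tested member, tamoxifen minus control, with its 95% confidence interval, in MCM after 4 injections (red), MCM after 1 injection (orange) and WT after 4 injections (blue). In Scd2 the red interval, 1.24 to 2.04, lies to the right of the others, while most other members' intervals overlap.

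The difference between the 4-injection effect in MCM and that in WT hearts was tested directly, and 4 members were called, all with a higher effect in MCM, against 7.98% of all tested genes (4.45% higher and 3.53% lower). Scd2 differed by 1.23 (SE 0.252, limma adjusted p = 0.00629), Hmgcs1 by 0.68 (SE 0.194, limma adjusted p = 0.0385), Acly by 0.51 (SE 0.131, limma adjusted p = 0.0236) and Srebf2 by 0.39 (SE 0.113, limma adjusted p = 0.0416). Acly and Srebf2 in WT hearts had changes of -0.05 and 0.00. Scd2 was called whichever of the 15 arrays was left out. Acly was lost without MCM 4 control replicate 1 (adjusted p = 0.068) and without WT 4 tamoxifen replicate 3 (adjusted p = 0.0715). Hmgcs1 was called in 4 of the 15 such fits, those without any 1 of the MCM 4 tamoxifen arrays or without WT 4 control replicate 2, and had an adjusted p between 0.0524 and 0.0938 in the others. Without MCM 4 tamoxifen replicate 3 its difference was 0.41. Srebf2 was called in 3 of the 15, those without MCM 4 tamoxifen replicate 1 or 2 or WT 4 control replicate 3, with adjusted p between 0.0502 and 0.122 in the others.

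The difference between the effect of 4 and of 1 tamoxifen injections in MCM hearts was called for 3 members, all higher after 4, against 5.78% of all tested genes (2.78% higher). Scd2 differed by 1.40 (SE 0.269, limma adjusted p = 0.00479), Acly by 0.51 (SE 0.14, limma adjusted p = 0.0368) and Srebf2 by 0.44 (SE 0.12, limma adjusted p = 0.0369). Hmgcs1 differed by 0.62 and was not called (limma adjusted p = 0.0861). Scd2 was called whichever of the 12 arrays was left out. Acly was called in 3 of these fits, without MCM 4 tamoxifen replicate 1 or 2 or MCM 1 control replicate 1, and otherwise had an adjusted p between 0.0502 and 0.0934. Srebf2 was called in 3, those without any 1 of the MCM 4 tamoxifen arrays, and otherwise had an adjusted p between 0.0534 and 0.0896. Both differences use the MCM 4 tamoxifen and MCM 4 control arrays, so they are not independent of each other. Within array set A, with 2 arrays a group, the difference between 4 and 1 injections called no member and 4 genes in all (0.0351%).

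Between genotypes, after 4 control injections, no member was called in MCM against WT hearts, on a background of 0.676%, and 2 members had an unadjusted limma p under 0.05, against 14.9% of all genes. Insig1, the anchor of Scap, read 7.64, 7.74 and 7.62 in MCM 4 control hearts, against a lowest, median and highest value of 6.97, 7.11 and 7.41 in WT 4 control hearts. Its groups did not overlap, nor did those of Scap, both higher, against 12.5% of all genes (8.49% higher and 4.05% lower). Scap read 7.31, 7.43 and 7.31 in MCM 4 control hearts, against 7.24 to 7.31 in WT 4 control hearts. Its groups thus touch in the rounded values. The change of Insig1 was 0.50 (SE 0.137, limma adjusted p = 0.0926). Over the whole series all 12 MCM arrays, at 7.55 to 8.27, were above all 9 WT arrays, at 6.73 to 7.41, as were 0.773% of all tested genes. Fitted on the 9 arrays compared, Insig1 was called (adjusted p = 0.0474), and with the array set as a block its change was 0.41 (adjusted p = 0.418). The WT arrays all lie in one array set, with 1 array of each MCM group. In that set Insig1 read 7.69 (MCM 1 control), 7.55 (MCM 1 tamoxifen), 7.64 (MCM 4 control) and 7.65 (MCM 4 tamoxifen), against 6.73 to 7.41 on the WT arrays. The part of that split in the difference was not tested beyond this block.

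Between the sexes, over all groups, 1 member was called in males against females, on a background of 0.29%. Hsd17b7, which reduces a ketone on the sterol ring, averaged 7.69 ± 0.266 on the male arrays (SD, n = 8) and 7.18 ± 0.291 on the female arrays (SD, n = 13). Males ranged from 7.20 to 8.12 and females from 6.80 to 7.78, so the sexes overlapped, and the change was 0.55 (SE 0.0996, limma adjusted p = 0.017). No member was called without MCM 1 control replicate 1, MCM 4 tamoxifen replicate 1 or WT 4 tamoxifen replicate 1, which are males.

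Other genes of the same paths were counted from lists. Of 8 tested mevalonate and sterol enzymes beyond the members, 3 rose in MCM 4 tamoxifen hearts against MCM 4 control hearts and none fell, where 13.9% of all tested genes rose and 9.41% fell. With 1 array left out, 1 to 4 of these 8 were called higher, the fewest without MCM 4 control replicate 3, and 1 was called lower without MCM 4 tamoxifen replicate 1 or 2 or MCM 4 control replicate 1. Msmo1, the methylsterol monooxygenase, read 7.11, 7.43 and 8.29 in MCM 4 tamoxifen hearts, against 6.81, 6.96 and 6.89 in MCM 4 control hearts (limma adjusted p = 0.00728). Tmem97, a sterol-binding protein of the endoplasmic reticulum, read 6.37, 6.20 and 7.46 in MCM 4 tamoxifen hearts, against 5.91, 6.05 and 5.72 in MCM 4 control hearts (limma adjusted p = 0.0117). Both were highest on replicate 3, and without it the changes of Msmo1 and Tmem97 were 0.39 and 0.39, against 0.72 and 0.78 with it. Tmem97 was not called without MCM 4 control replicate 3 (adjusted p = 0.0589). Erlin2 had a change of 0.23 that was called (limma adjusted p = 0.0409) but was lost without MCM 4 tamoxifen replicate 1 (adjusted p = 0.0729) or 3 (adjusted p = 0.162) and without MCM 4 control replicate 1 (adjusted p = 0.125) or 3 (adjusted p = 0.14).

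Of 6 tested genes of SREBP processing and feedback, 2 rose and none fell, against 13.9% and 9.41% of all tested genes. Prkaa1, a catalytic subunit of AMP-activated protein kinase, read 7.79, 7.66 and 7.78 in MCM 4 tamoxifen hearts, against 7.39, 7.40 and 7.35 in MCM 4 control hearts, with a change of 0.37 (limma adjusted p = 0.00272). Rnf145, a ubiquitin ligase of the endoplasmic reticulum, read 6.75, 6.56 and 6.76 in MCM 4 tamoxifen hearts, against 6.27, 6.21 and 6.36 in MCM 4 control hearts, with a change of 0.41 (limma adjusted p = 0.00501). Both were raised to a like extent on the 3 arrays and were called whichever of the 6 arrays was left out.

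Of 12 tested genes of cholesterol uptake and trafficking, 2 rose and 3 fell, against 13.9% and 9.41% of all tested genes. With 1 array left out the number called higher was 2 without MCM 4 tamoxifen replicate 2 and 1 without any other array, and the number called lower was 1 without MCM 4 tamoxifen replicate 3 or MCM 4 control replicate 3, 2 without MCM 4 control replicate 1 or 2, and 4 without MCM 4 tamoxifen replicate 1 or 2. Vldlr, the receptor for triglyceride-rich lipoproteins, read 9.21, 9.36 and 8.43 in MCM 4 tamoxifen hearts, against 10.26, 10.21 and 10.07 in MCM 4 control hearts. All 3 tamoxifen arrays lay clearly below, and the change was -1.18 (SE 0.142, limma adjusted p = 2.33e-05). Lipa, the lysosomal acid lipase, read 8.33, 7.95 and 8.13 in MCM 4 tamoxifen hearts, against 7.61, 7.76 and 7.66 in MCM 4 control hearts, with a change of 0.46 (limma adjusted p = 0.00401). Lipa was also higher in MCM than in WT hearts after 4 control injections, by 0.46 (limma adjusted p = 0.0224). The WT arrays all lie in one array set and most MCM 4 control arrays in the other. The part of that split in the Lipa difference was not tested. Osbp, an oxysterol-binding protein, had a change of -0.43 (limma adjusted p = 0.0154) that was lost without MCM 4 tamoxifen replicate 3 (-0.23, adjusted p = 0.0617) and without MCM 4 control replicate 3 (adjusted p = 0.0799). Cav1, the caveolar coat protein, had a change of -0.40 (limma adjusted p = 0.0367) that was called in only 1 of the 6 fits with an array left out, the one without MCM 4 tamoxifen replicate 1, with adjusted p between 0.0592 and 0.132 in the others.

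Of 8 tested genes of the LXR receptors and cholesterol efflux, 1 rose and none fell, against 13.9% and 9.41% of all tested genes. With 1 array left out none was called without MCM 4 tamoxifen replicate 1 or MCM 4 control replicate 3, 1 was called lower and none higher without MCM 4 control replicate 2, and 2 were called higher without MCM 4 tamoxifen replicate 2. Abcg1, a sterol exporter, read 6.64, 6.08 and 6.70 in MCM 4 tamoxifen hearts, against 6.05, 5.90 and 6.0 in MCM 4 control hearts, with a change of 0.49 (limma adjusted p = 0.0234). Replicate 2 lay just above the controls. The Abcg1 call was lost without MCM 4 tamoxifen replicate 1 (adjusted p = 0.0792) or 3 (adjusted p = 0.107) and without MCM 4 control replicate 2 (adjusted p = 0.0767) or 3 (adjusted p = 0.0583).

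Of 26 tested genes of fatty acid synthesis and NADPH supply beyond the members, 6 rose and 4 fell, against 13.9% and 9.41% of all tested genes. These counts turned on single arrays: 7 were higher and 10 lower without MCM 4 tamoxifen replicate 1, 8 and 8 without replicate 2, and 4 and 1 without replicate 3. Without MCM 4 control replicate 1 they were 4 higher and 2 lower, and without MCM 4 control replicate 3 they were 3 higher and none lower. Thrsp, a regulator of lipogenesis, read 9.06, 7.51 and 6.37 in MCM 4 tamoxifen hearts, against 6.91, 5.96 and 5.88 in MCM 4 control hearts, so that it was highest on replicate 1 and within the controls on replicate 3. Its change was 1.39 (SE 0.346, limma adjusted p = 0.00851), and 0.85 without MCM 4 tamoxifen replicate 1. Fads3, a desaturase gene beside Fads1 and Fads2, read 8.35, 8.90 and 9.61 in MCM 4 tamoxifen hearts, against 8.09, 8.12 and 7.92 in MCM 4 control hearts. Fads3 changed by 0.91 (limma adjusted p = 0.00357), and by 0.56 without MCM 4 tamoxifen replicate 3. Pgd, an NADPH source of the pentose phosphate path, changed by 0.61 (limma adjusted p = 0.00692), and by 0.33 without that array. Acss2, which makes acetyl-CoA from acetate, changed by -0.54 (limma adjusted p = 0.0134), by -0.28 without that array, and was not called without MCM 4 control replicate 3 (adjusted p = 0.0563).

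Of 20 tested genes of glycerolipid synthesis and lipid droplets, 5 rose and 3 fell, against 13.9% and 9.41% of all tested genes. Without MCM 4 tamoxifen replicate 1, 4 were higher and 7 lower, and without replicate 3, 3 were higher and 1 lower. Without MCM 4 control replicate 1 they were 3 higher and 2 lower, without replicate 2 they were 3 higher and none lower, and without replicate 3 they were 3 higher and 3 lower. Plin2, a coat protein of lipid droplets, read 9.70, 8.72 and 8.83 in MCM 4 tamoxifen hearts, against 8.51, 8.30 and 8.37 in MCM 4 control hearts. Plin2 changed by 0.69 (limma adjusted p = 0.00299), and by 0.45 without MCM 4 tamoxifen replicate 1. Lpin2, a relative of Lpin1, read 6.10, 5.90 and 6.17 in MCM 4 tamoxifen hearts, against 5.57, 5.33 and 5.57 in MCM 4 control hearts (limma adjusted p = 0.000558). Acsl4, which activates arachidonic acid, changed by 0.61 (limma adjusted p = 0.00116). Pnpla2, the adipose triglyceride lipase, changed by -0.59 (limma adjusted p = 0.0123), by -0.30 without MCM 4 tamoxifen replicate 3, and was not called without MCM 4 control replicate 2 (adjusted p = 0.0648). Of the named list genes, Msmo1, Tmem97, Vldlr, Fads3, Thrsp, Lpin2 and Acsl4 were also called for the difference of the tamoxifen effect between MCM and WT hearts, with differences of 0.77, 0.92, -1.09, 1.06, 1.52, 0.53 and 0.59 in that order. No array was left out for those differences. The named genes were picked by their adjusted p in MCM 4 tamoxifen against MCM 4 control hearts, which is part of the same difference. Their calls are therefore not independent of that choice and add no separate support. Of all tested genes, 7.98% were called for the difference.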

How the data were processed

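Left ventricle RNA was hybridised to Affymetrix arrays. The deposited values are log2 expression per probe set made with RMA, per the submitters' processing notes; the sources used here name no RMA version and no array software. The deposited log2 values were used with no further scaling (array medians 4.57 to 4.72). Of 34760 probe sets, 21640 carried 1 gene, 1321 several and 11799 none in the platform annotation, and genes were named from the first kind alone. No depth applies to arrays; the number of arrays limits the precision. The members and the gene lists were chosen with earlier results of these data known.

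Groups were taken from the sample labels. limma 3.58.1 in R 4.3.3 fitted 6 group means and sex on all 21 arrays (14 residual degrees of freedom), with eBayes and Benjamini-Hochberg adjustment over 11384 genes, and was tested on simulated data with 200 changed genes. Calls were made at an adjusted p under 0.05. Changes are differences of log2 values, and folds are their antilogs. Group comparisons were 4 tamoxifen against control in MCM and in WT, 1 tamoxifen against control in MCM, MCM against WT after control injections, and the differences of these effects between genotypes and between 4 and 1 injections.

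All members are named. Values on every array of the groups of 3, and the lowest, median and highest of the WT 4 control arrays, are given for members called in a tamoxifen comparison or a difference, and for Hmgcs1, Sqle, Srebf1, Srebf2, Scd1, Scd2 and Fasn. From each other list, up to 4 called genes with the smallest adjusted p are named. Alternatives were other filters, normalisation, weights, arrays, a replicate block and, chosen after seeing the data, the array set, split on 1 of 25 unannotated probe sets.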

Additional observations from a re-analysis of the deposited data

Results flagged for a closer look

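In the 6 WT 4 control arrays, 31 measured members were searched for 1 array that stands far from the other arrays of its group, and 6 such values were found. Chance alone gives about 1 such value in 20 independent groups. The 31 members share the same 6 arrays and are not independent, so the number found is not read against that rate. Replicate 4 was the low array for Idi1, at 5.07, and for Stard4, at 5.70. Replicate 3 was the high array for Acaca, at 6.61, and for Elovl5, at 7.97. Replicate 2 was the high array for Fdps, at 6.85, and replicate 1 was the low array for Fasn, at 6.41.

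The tamoxifen effect differed between MCM and WT hearts, by limma's test of the difference, for Scd2 (1.23), Hmgcs1 (0.68), Acly (0.51) and Srebf2 (0.39). It differed between 4 and 1 injections in MCM hearts, by the same test, for Scd2 (1.40), Acly (0.51) and Srebf2 (0.44). All 7 differences share the MCM 4 tamoxifen arrays, on which the macrophage markers were also higher, and the part of those markers in these differences was not tested.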

How the results depend on the processing

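No log2 change of a called member turned its direction under any alternative run; 232 of the recomputed changes stayed on their side of the threshold and 116 lost the call. Of 28 members, 8 were called in MCM hearts after 4 tamoxifen injections. That count was 0 with the 6 arrays compared alone, 4 with female arrays only, 4 with group variance weights, 1 within array set A, and 6 to 13 with 1 array left out. Of all genes 2654 were called, against 18, 1502, 1011 and 655 under those 4 settings in that order, 1490 with array weights, 1147 at an adjusted p under 0.01, and 1648 to 3846 with 1 array left out. The members' median change was 0.08 with array weights and 0.11 without MCM 4 tamoxifen replicate 3, against 0.263. For MCM against WT after control injections the count was 1 with the arrays compared alone, with array weights and with group variance weights. For the difference between genotypes, with 4 members called, it was 2 with the arrays compared alone, 1 with female arrays only, 2 with no filter, 2 with group variance weights, 1 at an adjusted p under 0.01, and 1 to 8 with 1 array left out. For the difference between 4 and 1 injections, with 3 called, it was 1 with the arrays compared alone, 0 with female arrays only, 1 with no filter, 1 with group variance weights, 1 at an adjusted p under 0.01, 0 within array set A, and 1 to 7 with 1 array left out. For males against females it was 0 at an adjusted p under 0.01, and 0 to 1 with 1 array left out. For the comparisons after the first, the shares of all genes under most of these settings are not given here. Whether the members or all genes moved cannot be read from those counts. Array set B held 1 array of each MCM group and so gave no test.

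Whether replicate numbers pair the arrays was not settled. Correlations of same-numbered arrays ran from -0.24 to 0.36, and over 0.1 in 20 of 45 pairs. Every pair of replicate 1 arrays was over 0.1, while pairs of replicates 2 and 3 had either sign. Sex was not removed before this check, and each replicate 1 is a male, so pairing and sex cannot be told apart there. All 3 MCM 1 tamoxifen arrays, 2 of 3 MCM 4 tamoxifen arrays and 1 of 3 WT 4 tamoxifen arrays correlated best with the control array of their own number. With the replicate number as a block, 7 members and 1655 genes were called in MCM hearts after 4 tamoxifen injections, 0 for the difference between genotypes, 1 for the difference between 4 and 1 injections, and 0 for males against females, where each replicate 1 is a male. Replicates 4 to 6 occur only in WT 4 control, so each of these female arrays had a term of its own in that fit. The WT 4 control group then rested on its 3 male arrays, while in the other groups replicate 1 is the only male. The block counts for the difference between genotypes and for sex therefore cannot show an effect of pairing. The causes of these shifts were not tested. Arrays number 3 in most groups, which limits what a change near 0.3 can show. Sqle, Lss and Elovl6 reached the level of 5, before rounding, on 1 array each, where 3 were required, and so were not tested.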

Other observations

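Members with a further probe set of their own could be read again. A further Idi1 probe set was at 5.74, 6.14 and 7.24 in MCM 4 tamoxifen hearts, against 5.23, 5.40 and 5.34 in MCM 4 control hearts. On it every tamoxifen array was above every control array, with a mean difference of 1.05, whereas the probe set used above gave 0.50 with overlapping groups. For Acaca a further probe set gave 0.32, against 0.30 on the one used, for Fdft1 -0.28, against -0.20, and for Me1 -0.19, against -0.24. When the probe sets of each gene were averaged, Idi1 was among 10 members called in MCM hearts after 4 tamoxifen injections, an alternative named here for Idi1 after its values were seen. The share of all genes called in that setting is not given here, so the count of 10 is not read further.

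MCM 4 tamoxifen replicate 2 and MCM 4 control replicate 1 are the arrays of these groups outside array set A, and they differ in sex, male for the control. Between them Scd2 differed by 1.13, Hmgcs1 by 0.58, Srebf2 by 0.43 and Acly by 0.36 on the log2 scale. These are single arrays with no replicate.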
